A study of Homo sapiens with 6 samples.

Results

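Genes for protein acylation were examined in C4-2 cells, a castration-resistant prostate cancer line derived from LNCaP. They were the protein-coding genes whose symbol starts with ZDHHC, together with GOLGA7, GOLGA7B, SELENOK, LYPLA1, LYPLA2, PPT1, PPT2, ABHD17A, ABHD17B, ABHD17C, ABHD10, NMT1, NMT2, HHAT and PORCN, kept where the deposited table lists them with a mean of at least 10 normalised counts. Of 39 such genes in GENCODE 29, 34 were kept, out of 14456 genes in the table. GOLGA7B, ZDHHC1, ZDHHC11B, ZDHHC19 and ZDHHC22 are not listed in it and were not analysed here, and 0 listed candidates had a mean under 10. The lowest of the 34 was PPT2, with 92 reads over all libraries.

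Polyadenylated RNA came from 3 samples labelled IPI-9119 and 3 labelled DMSO (0.1%), with the drug given for 6 days at a dose of 100 nM and all cells grown in RPMI medium with serum. IPI-9119 inhibits fatty acid synthase, the enzyme that makes palmitate. The cells of both groups are the same unmodified line, and the labels name no engineered allele. They do not say whether the replicates were grown separately, and they give no batch, so the spread behind each p-value may be technical and a batch cannot be told apart from the treatment. The libraries held 19090749 to 20422882 reads with IPI-9119 and 21952620 to 23448035 with DMSO. All 9 luminal prostate markers checked, KLK3 among them, were listed, as were 0 of 3 basal, 0 of 3 leukocyte, 1 of 3 endothelial, 2 of 3 fibroblast and 1 of 2 neuroendocrine markers. FASN, the target, gave 9365, 13284 and 13511 normalised counts in the IPI-9119 libraries and 13182, 15941 and 15107 in the DMSO libraries, and did not pass the test (limma log2 fold change -0.31, adjusted p 0.112). It passed as lower without IPI-9119 replicate 3 (-0.40, adjusted p 0.0225), stood at -0.13 without IPI-9119 replicate 1 (adjusted p 0.0773), and passed as higher after the correction for length and GC content described below (0.84, adjusted p 2.1e-08).

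Palmitoylation attaches palmitate, taken from palmitoyl-CoA, to cysteines of proteins and thereby holds them at membranes. It is carried out by integral membrane enzymes that carry a DHHC motif, some of which need a partner protein, and it is reversed by thioesterases in the cytosol, mitochondria and lysosome. N-myristoyltransferases put myristate on an N-terminal glycine, a bond that is not normally reversed. HHAT and PORCN, of the membrane-bound O-acyltransferase family, act in the secretory pathway on Hedgehog and Wnt proteins.

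Most of these genes were modestly higher with IPI-9119. Of the 34 members, 20 rose, 1 fell and 13 did not pass (limma on log2 of the value plus 1, Benjamini-Hochberg adjusted p under 0.05 over 14437 genes). That is 58.8% higher and 2.94% lower, against 31.3% higher, 31.4% lower and 62.8% in either direction among all genes tested. The median log2 fold change was 0.39 for the members and 0.0017 for all genes tested. The changes were small. A 2-fold difference was reached by 2 of the 34 members, ZDHHC13 upward and ZDHHC8 downward, against 2501 of 14437 genes tested. After the correction for length and GC content described below, ABHD17A (1.25) and ZDHHC14 (1.05) also reached it, and ZDHHC8 (-0.83) did not. All IPI-9119 libraries lay above all DMSO libraries for 21 members and below them for 4, against 34.0% and 33.9% of all genes. The members were chosen by name and function, with earlier results of these data known. In such bulk samples fewer cells with a transcript and less RNA per cell cannot be told apart.

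**Figure D1:**
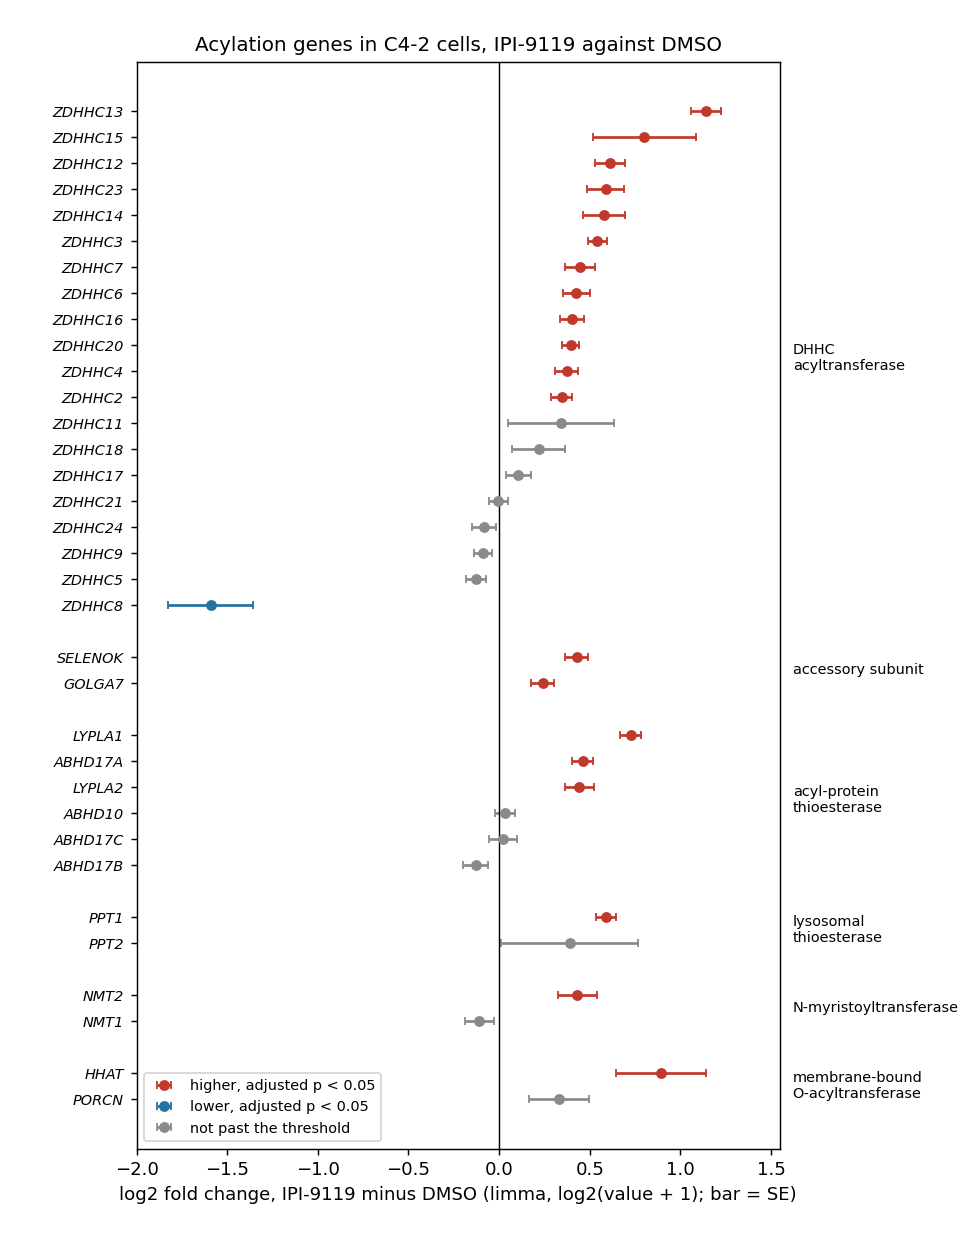
Log2 fold change of each of the 34 acylation genes, IPI-9119 minus DMSO (x axis), with the SE as a bar, grouped by role down the page. Red points are the 20 genes that rose, blue is ZDHHC8, the 1 that fell, and grey are the 13 that did not pass the test.

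The DHHC acyltransferases were the largest group, with a median log2 fold change of 0.38. Of the 20, 12 rose and 1 fell, against 31.3% and 31.4% of all genes. After the correction for length and GC content 13 were higher and 3 lower (median 0.26), against 30.7% and 34.1% of all genes. ZDHHC13, an enzyme with ankyrin repeats (ENSG00000177054, chromosome 11, 19117099 to 19176422, plus strand, GRCh38), rose most of the 34. It gave 753, 815 and 687 normalised counts in the IPI-9119 libraries and 332, 343 and 342 in the DMSO libraries. The lowest IPI-9119 library thus lay well above the highest DMSO library. The means were 752 ± 63.7 with IPI-9119 and 339 ± 5.55 with DMSO (SD, n = 3 each), 2.21-fold (log2 fold change 1.14, SE 0.083, limma adjusted p 3.6e-08). ZDHHC17, the other ankyrin-repeat enzyme, averaged 801 ± 41.1 with IPI-9119 and 744 ± 23.5 with DMSO and did not pass (log2 fold change 0.11, adjusted p 0.193).

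ZDHHC8, an enzyme whose gene lies in the chromosome 22 region deleted in DiGeorge syndrome, was the single member that fell (ENSG00000099904, chromosome 22, 20129456 to 20148007, plus strand). It gave 27.4, 54.5 and 45.1 normalised counts in the IPI-9119 libraries and 123, 149 and 106 in the DMSO libraries. All IPI-9119 libraries were below all DMSO libraries, with 26, 50 and 41 reads in the IPI-9119 libraries and 138, 158 and 115 in the DMSO libraries. The log2 fold change was -1.59 (SE 0.24, limma adjusted p 4.2e-05). ZDHHC5, its closest relative and an enzyme of the plasma membrane, gave 3034, 3409 and 3437 normalised counts in the IPI-9119 libraries and 3464, 3611 and 3707 in the DMSO libraries. Its groups did not overlap either, but the difference was small and did not pass (log2 fold change -0.13, adjusted p 0.0611). Per kilobase of exon ZDHHC5 stood at 607 normalised counts with IPI-9119 and 662 with DMSO, far above ZDHHC8 with 7.64 and 22.7 for IPI-9119 and DMSO. ZDHHC5 passed as lower with edgeR (adjusted p 0.0498) and without IPI-9119 replicate 3 (-0.16, adjusted p 0.0447), and stood at -0.070 without IPI-9119 replicate 1 (adjusted p 0.206).

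The coding stretch around the motif shows how close these enzymes are and where ZDHHC13 departs from the rest. For each of the 8 enzymes below, 72 bases of the coding strand are given 5′ to 3′ from the GENCODE 29 transcript on GRCh38, with the 12 bases of the 4 motif codons in capitals.
ZDHHC13: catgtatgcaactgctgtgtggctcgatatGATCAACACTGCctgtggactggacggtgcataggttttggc
ZDHHC17: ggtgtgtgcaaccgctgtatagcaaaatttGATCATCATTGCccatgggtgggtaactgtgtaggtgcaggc
ZDHHC8: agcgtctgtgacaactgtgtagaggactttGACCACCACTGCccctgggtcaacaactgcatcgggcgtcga
ZDHHC5: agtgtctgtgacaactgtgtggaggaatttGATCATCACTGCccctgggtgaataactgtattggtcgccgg
ZDHHC3: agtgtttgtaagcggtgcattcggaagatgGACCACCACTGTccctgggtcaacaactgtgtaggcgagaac
ZDHHC7: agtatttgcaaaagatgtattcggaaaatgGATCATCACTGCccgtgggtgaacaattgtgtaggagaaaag
ZDHHC20: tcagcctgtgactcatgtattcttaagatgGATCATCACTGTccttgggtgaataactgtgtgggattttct
ZDHHC15: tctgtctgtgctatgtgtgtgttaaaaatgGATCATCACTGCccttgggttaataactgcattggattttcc
The capitals of ZDHHC13 lie in exon 13 at chr11:19165112-19165123 (plus strand) and those of ZDHHC17 in exon 13 at chr12:76845769-76845780 (plus strand). Those of ZDHHC8 lie in exon 4 at chr22:20139726-20139737 (plus strand) and those of ZDHHC5 in exon 5 at chr11:57690037-57690048 (plus strand). On the minus strand, ZDHHC3 has them in exon 4 at chr3:44933945-44933956, ZDHHC7 in exon 5 at chr16:84979246-84979257, ZDHHC20 in exon 6 at chr13:21401658-21401669 and ZDHHC15 in exon 6 at chrX:75429953-75429964. Counted from 1 at the first capital, ZDHHC17 and ZDHHC13 differ by T6A and T9C. The second codon of the motif is CAA in 1 of the 20 DHHC members, ZDHHC13, and CAC or CAT in the other 19, and ZDHHC13 is known for a DQHC form of the motif. ZDHHC5 and ZDHHC8 match at 60 of 72 bases, and their capitals differ by T3C and T6C. The longest run shared exactly by the transcripts of these relatives was 22 nt for ZDHHC5 and ZDHHC8 and 12 nt for ZDHHC13 and ZDHHC17. ZDHHC11 and ZDHHC11B share a run of 412 nt, so the reads of ZDHHC11 are uncertain.

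ZDHHC3 and ZDHHC7, related Golgi enzymes with broad substrate ranges, both rose. ZDHHC3 (chromosome 3, 44915257 to 44976185, minus strand) gave 2092, 2042 and 1942 normalised counts in the IPI-9119 libraries and 1368, 1406 and 1398 in the DMSO libraries. Its log2 fold change was 0.54 (SE 0.053, limma adjusted p 7.85e-07). ZDHHC7 averaged 1055 ± 97.2 with IPI-9119 and 773 ± 59.01 with DMSO (SD, n = 3 each; log2 fold change 0.45). Their motif stretches match at 56 of 72 bases.

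The related enzymes ZDHHC2, ZDHHC15 and ZDHHC20 also rose. ZDHHC20, which palmitoylates EGFR, averaged 7372 ± 273 normalised counts with IPI-9119 and 5605 ± 167 with DMSO (SD, n = 3 each; log2 fold change 0.40, limma adjusted p 4.8e-06). ZDHHC2, known for modifying the ER protein CKAP4, averaged 1426 ± 42.5 with IPI-9119 and 1121 ± 46.1 with DMSO (SD, n = 3 each; log2 fold change 0.35). ZDHHC15 gave 42.2, 49.1 and 37.4 normalised counts in the IPI-9119 libraries and 16.98, 22.6 and 35.8 in the DMSO libraries. DMSO replicate 3 came close to the lowest IPI-9119 library. The call of ZDHHC15 (log2 fold change 0.80, SE 0.28, limma adjusted p 0.0238) was lost without IPI-9119 replicate 2 (adjusted p 0.0870), DMSO replicate 1 (0.104) or DMSO replicate 2 (0.0568), and with DESeq2 (0.0557).

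ZDHHC9, ZDHHC14 and ZDHHC18 form another subfamily, in which 1 of 3 passed, against 62.8% of all genes in either direction. After the correction for length and GC content, ZDHHC14 (1.05) and ZDHHC18 (0.52) were higher and ZDHHC9 (-0.18) was lower. Of all genes 64.8% then passed in either direction. ZDHHC14 gave 206, 206 and 222 normalised counts in the IPI-9119 libraries and 143, 147 and 133 in the DMSO libraries, without overlap (log2 fold change 0.58, SE 0.11, limma adjusted p 0.00052). ZDHHC9, a Ras palmitoyltransferase that works with GOLGA7, averaged 3439 ± 130.3 with IPI-9119 and 3653 ± 103 with DMSO (log2 fold change -0.087, adjusted p 0.135). All IPI-9119 libraries of ZDHHC9 lay below all DMSO libraries, as for 33.9% of all genes. ZDHHC18 averaged 142 ± 13.7 with IPI-9119 and 122 ± 18.3 with DMSO (SD, n = 3 each; log2 fold change 0.22, adjusted p 0.205). Differences between relatives were not tested as such.

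Among the remaining DHHC genes, ZDHHC12 and ZDHHC23 rose most. ZDHHC12 gave 673, 603 and 591 normalised counts in the IPI-9119 libraries and 427, 401 and 390.3 in the DMSO libraries (log2 fold change 0.61, SE 0.082, limma adjusted p 1.6e-05). ZDHHC23 gave 446, 515 and 525 in the IPI-9119 libraries and 296, 324 and 368 in the DMSO libraries (log2 fold change 0.59, SE 0.10, adjusted p 0.00016). For both, the lowest IPI-9119 library stood above every DMSO library. ZDHHC6, an ER enzyme, rose by a log2 fold change of 0.43. ZDHHC16, which acts on ZDHHC6, rose by 0.40, and ZDHHC4 by 0.37. ZDHHC21 averaged 1707 normalised counts with IPI-9119 and 1712 with DMSO (n = 3 each), a log2 fold change of -0.0036 (SE 0.052). ZDHHC24 and ZDHHC11 had log2 fold changes of -0.083 and 0.34 (adjusted p 0.299 and 0.322). Exons of BBS1 on the opposite strand overlap 12.1% of those of ZDHHC24. An antisense gene on the opposite strand overlaps 10.0% of the exons of ZDHHC4.

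**Figure D2:**
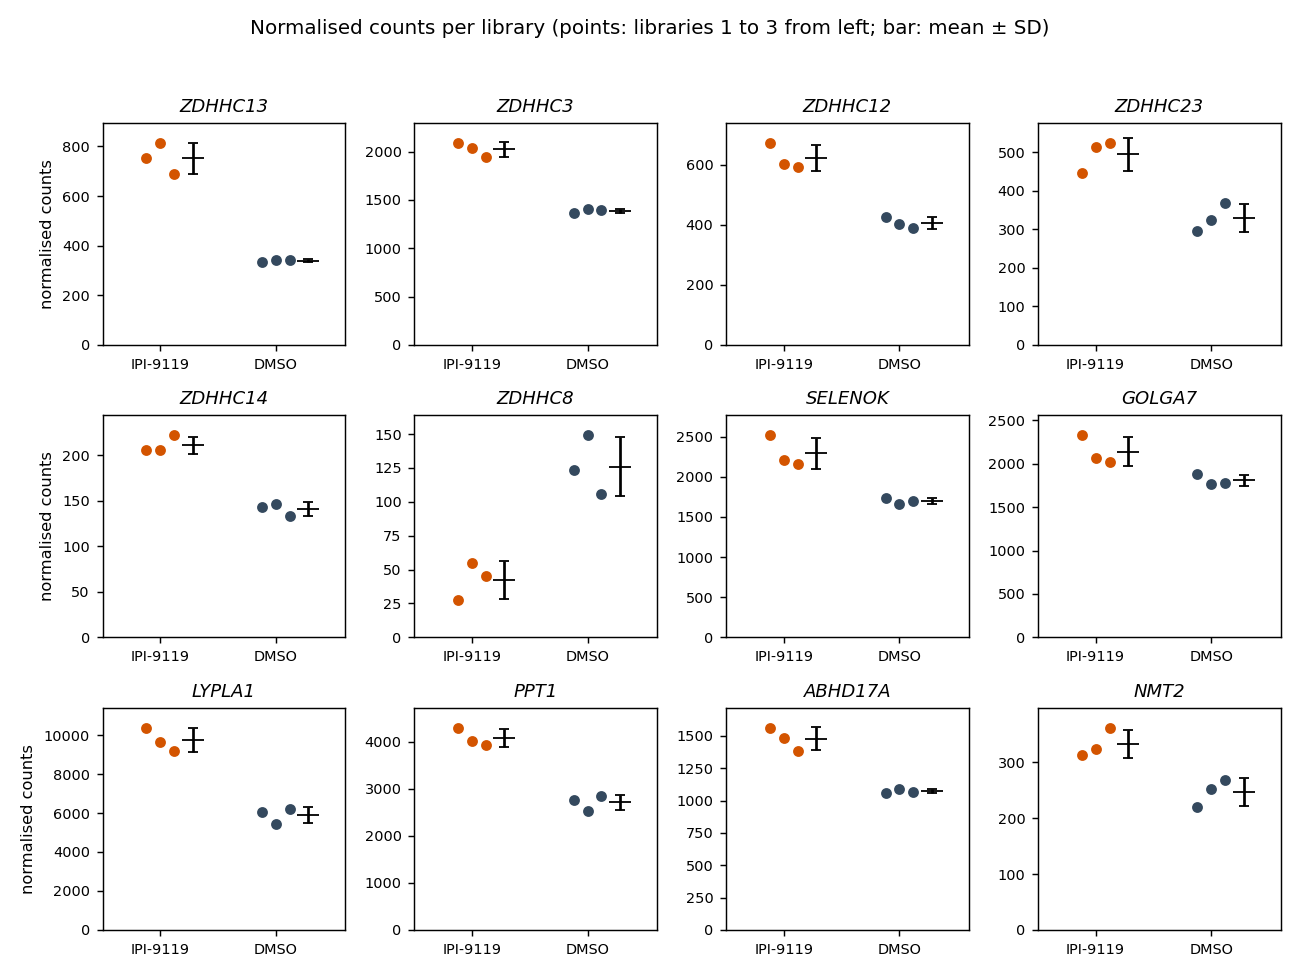
Normalised counts (y axis, from 0) of 12 acylation genes in each library, with the 3 IPI-9119 libraries left and the 3 DMSO libraries right, and the mean ± SD beside the points. The groups do not overlap for any of the 12, and ZDHHC8 is the 1 gene lower with IPI-9119.

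Both partner proteins listed in the table rose, against 31.3% of all genes. For GOLGA7 this did not hold after the correction for length and GC content (-0.014, adjusted p 0.832), and SELENOK was then at 0.18. SELENOK, a selenoprotein of the ER that serves ZDHHC6 (chromosome 3, 53884410 to 53891988, minus strand), gave 2516, 2203 and 2156 normalised counts in the IPI-9119 libraries and 1737, 1663 and 1701 in the DMSO libraries. Its log2 fold change was 0.43 (SE 0.062, limma adjusted p 3.5e-05). GOLGA7, the partner of ZDHHC9, gave 2329, 2071 and 2021 in the IPI-9119 libraries and 1878, 1767 and 1784 in the DMSO libraries (log2 fold change 0.24, SE 0.061, adjusted p 0.0034). IPI-9119 replicate 1 was the highest library for both genes, and the groups did not overlap for either.

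Of the thioesterases that remove palmitate, LYPLA1 changed most, and 4 of 8 rose while 0 fell, against 31.3% and 31.4% of all genes. After the correction for length and GC content 4 were higher and 3 lower, namely ABHD17B (-0.38), ABHD17C (-0.24) and ABHD10 (-0.22), and ABHD17A (1.25) was then above LYPLA1 (0.46). LYPLA1, also called acyl-protein thioesterase APT1 (chromosome 8, 54046367 to 54102017, minus strand), gave 10374, 9665 and 9182 normalised counts in the IPI-9119 libraries and 6027, 5438 and 6211 in the DMSO libraries. The means were 9740.3 ± 599 with IPI-9119 and 5892 ± 404 with DMSO (SD, n = 3 each), 1.65-fold (log2 fold change 0.73, SE 0.058, limma adjusted p 1.1e-07). Its paralog LYPLA2 gave 630.4, 612 and 616 in the IPI-9119 libraries and 444, 428 and 498 in the DMSO libraries (log2 fold change 0.44, SE 0.080, adjusted p 0.00025). Both paralogs were higher in 3 of 3 IPI-9119 libraries than in any DMSO library.

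Of the ABHD17 enzymes, which remove palmitate from NRAS, 1 of 3 rose, against 31.3% of all genes. ABHD17A (chromosome 19, 1876810 to 1885547, minus strand) gave 1562, 1483 and 1386 normalised counts in the IPI-9119 libraries and 1062, 1092 and 1063 in the DMSO libraries (log2 fold change 0.46, SE 0.061, limma adjusted p 1.4e-05). ABHD17B gave 723, 719 and 715 in the IPI-9119 libraries and 818, 731 and 812 in the DMSO libraries. Its IPI-9119 libraries were all lower, without passing the test (log2 fold change -0.13, adjusted p 0.121). ABHD17C gave 549, 584 and 532 in the IPI-9119 libraries and 576, 546 and 517 in the DMSO libraries (log2 fold change 0.023, adjusted p 0.811). ABHD10, a mitochondrial depalmitoylase, gave 2695, 2613 and 2470.2 in the IPI-9119 libraries and 2639, 2369 and 2589 in the DMSO libraries (0.034, adjusted p 0.613). The groups overlapped for both ABHD17C and ABHD10.

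PPT1, the lysosomal thioesterase whose loss causes infantile neuronal ceroid lipofuscinosis, rose. Its gene (chromosome 1, 40071461 to 40097727, minus strand) gave 4299, 4026 and 3924 normalised counts in the IPI-9119 libraries and 2755, 2536 and 2857 in the DMSO libraries, without overlap (log2 fold change 0.59, SE 0.056, limma adjusted p 5.8e-07). Of its merged exons 23.4% also lie in exons of CAP1 on the opposite strand. PPT2, a lysosomal relative, gave 20.03, 18.5 and 13.2 in the IPI-9119 libraries and 8.94, 20.8 and 11.02 in the DMSO libraries, and did not pass (0.39, SE 0.38, adjusted p 0.388). The readthrough gene PPT2-EGFL8 covers 49.3% of the exons of PPT2 on the same strand, so its few reads are uncertain. Whether the counting used strand is not given in the sources used here, and without strand the reads of overlapping genes cannot be told apart.

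Of the N-myristoyltransferases, 1 of 2 rose, against 31.3% of all genes. NMT2 (chromosome 10, 15102584 to 15168693, minus strand) gave 313, 324 and 362 normalised counts in the IPI-9119 libraries and 219.9, 253 and 268 in the DMSO libraries, and rose (log2 fold change 0.43, SE 0.11, limma adjusted p 0.0028). NMT1, the other enzyme, gave 586, 616 and 693 in the IPI-9119 libraries and 663, 711 and 664 in the DMSO libraries. Its groups overlapped and it did not pass (log2 fold change -0.11, SE 0.079, adjusted p 0.249). Exons of RPP38 on the opposite strand overlap 8.06% of those of NMT2.

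HHAT and PORCN were both higher in every IPI-9119 library, as were 34.0% of all genes. Of the pair 1 passed, against 62.8% of all genes in either direction. HHAT, which palmitoylates Hedgehog proteins, gave 41.1, 32.7 and 41.8 normalised counts in the IPI-9119 libraries and 18.8, 20.8 and 21.1 in the DMSO libraries. It rose 1.86-fold, without overlap of the groups (log2 fold change 0.89, SE 0.25, limma adjusted p 0.0062), on 30 to 39 reads per IPI-9119 library and 21 to 23 per DMSO library. PORCN, which attaches palmitoleate to Wnt proteins, gave 117, 133 and 111 in the IPI-9119 libraries and 75.97, 104 and 109 in the DMSO libraries. Its IPI-9119 libraries were all higher, but the difference did not pass (log2 fold change 0.33, SE 0.17, adjusted p 0.0960).

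Per kilobase of merged exons, a scale on which genes can be compared, the members ranged, with IPI-9119, from 3.83 ± 0.776 normalised counts for ZDHHC11 to LYPLA1. LYPLA1 stood at 2075 ± 128 normalised counts per kb with IPI-9119 and 1255 ± 86.1 with DMSO (SD, n = 3 each). ZDHHC20 was second in both groups, at 1323 ± 49.04 per kb with IPI-9119 and 1006 ± 29.98 with DMSO. SELENOK, GOLGA7, ABHD10 and PPT1 followed, with levels per kb between 802 and 1059 under IPI-9119. At the low end ZDHHC11, HHAT, PPT2, ZDHHC15 and, with IPI-9119, ZDHHC8 were under 10 per kb, and HHAT, PPT2 and ZDHHC15 differed by less than their SDs with IPI-9119. ZDHHC8 stood at 7.64 ± 2.48 per kb with IPI-9119 and 22.7 ± 3.94 with DMSO, and ZDHHC13 at 96.8 ± 8.21 per kb with IPI-9119 and 43.7 ± 0.715 with DMSO. Merged exons can exceed the transcript in use, so levels of genes with many exon variants are understated.

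**Figure D3:**
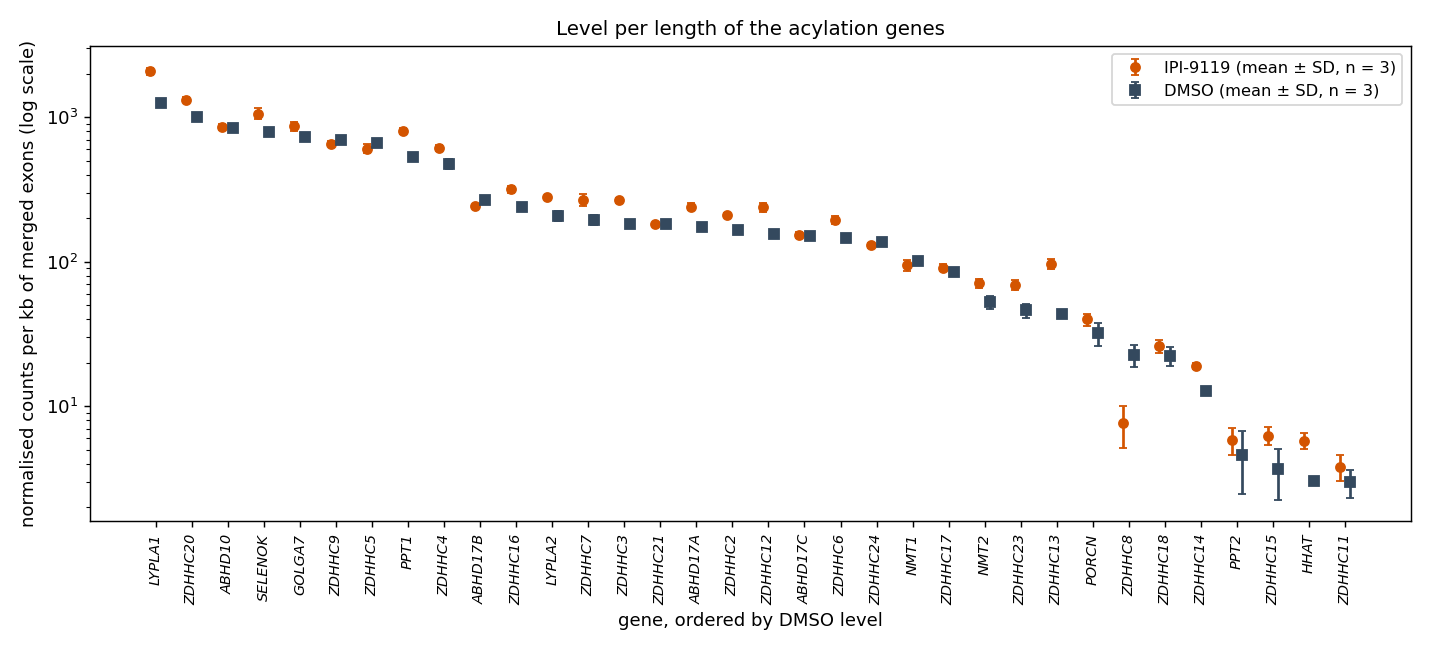
Normalised counts per kb of merged exons (y axis, log scale) of the 34 genes, ordered by their DMSO level, with IPI-9119 left of DMSO for each gene as mean ± SD over 3 libraries. LYPLA1 and ZDHHC20 lead, and ZDHHC8 and ZDHHC13 show the widest gaps between the groups in opposite directions.

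Summed over the 20 DHHC genes, the level was 5252, 5391 and 5335 normalised counts per kb in the IPI-9119 libraries and 4452, 4467 and 4529 in the DMSO libraries, a ratio of means of 1.19. ZDHHC20 took 24.8% ± 0.627 of that sum with IPI-9119 and 22.4% ± 0.728 with DMSO (SD, n = 3 each). The shares of ZDHHC9 and ZDHHC5 were 12.3% ± 0.314 and 11.4% ± 0.654 with IPI-9119, and 15.5% ± 0.315 and 14.8% ± 0.386 with DMSO. The 8 thioesterase genes summed to 4891, 4646 and 4444 per kb in the IPI-9119 libraries and 3512, 3219 and 3562 in the DMSO libraries, a ratio of 1.36. The N-myristoyltransferases summed to 155, 161 and 181 per kb with IPI-9119 and 146, 160.5 and 157 with DMSO, a ratio of 1.07 with overlapping libraries. These sums weigh abundant genes most and were not tested.

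**Figure D4:**
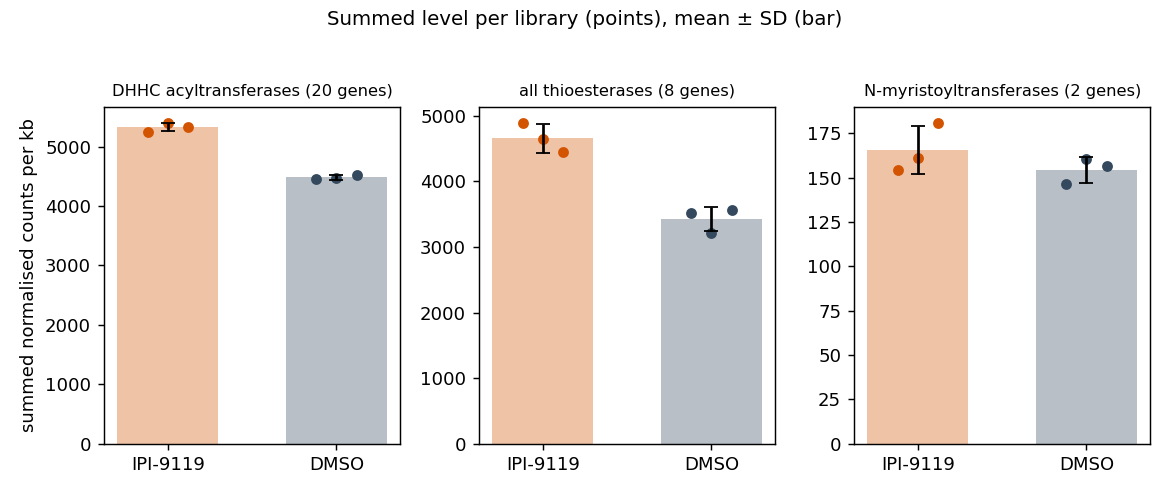
Summed normalised counts per kb (y axis, from 0) of the DHHC acyltransferases, all thioesterases and the N-myristoyltransferases, with IPI-9119 left and DMSO right, points for libraries and bars for the mean ± SD. The DHHC and thioesterase sums do not overlap between groups and the N-myristoyltransferase sums do.

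Fold changes over all genes moved with GC content and transcript length. With all genes split into 4 equal groups, the median log2 fold change was 0.083 in the group of lowest GC content and -0.17 in that of the highest, and 0.12 in the group of shortest exonic length and -0.15 in that of the longest. The members' own medians were 0.35, 0.43, 0.37 and 0.39 from the lowest to the highest GC content, over 11, 5, 11 and 7 members. From the shortest to the longest exonic length they were 0.43, 0.37, 0.35 and 0.56, over 4, 9, 15 and 6. Differences of the members with GC content or length were not tested. After a correction for both, 20 members were higher, 6 lower and 8 not past the threshold, against 30.7% of all genes higher, 34.1% lower and 64.8% in either direction (limma after correction). The split of higher to lower calls thus moved to 20 and 6 after the correction, against 20 and 1 without it. The members' median log2 fold change was 0.26 after the correction and that of all genes -0.033. ZDHHC18 gained a call (0.52, adjusted p 0.0057). ABHD17B (adjusted p 7.3e-05), ABHD17C (0.0091), ABHD10 (0.0011), ZDHHC9 (-0.18, 0.0031) and ZDHHC5 (-0.14, 0.024) passed as lower.

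Some called members kept their direction but changed in size with that correction. ABHD17A, with a GC content of 65.4%, had a corrected log2 fold change of 1.25, ZDHHC14 of 1.05 and ZDHHC3 of 0.83. ZDHHC8, with 65.9% GC, still fell, by 0.83 on the log2 scale (adjusted p 0.0017). NMT2 (0.24), ZDHHC4 (0.23), ZDHHC2 (0.21), ZDHHC6 (0.18), ZDHHC20 (0.18) and SELENOK (0.18) were less than 0.25 but still past the threshold. The corrected values of ZDHHC13 (1.04), HHAT (0.92), ZDHHC12 (0.61), PPT1 (0.44) and LYPLA2 (0.41) were within 1.5 times the uncorrected ones.

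**Figure D5:**
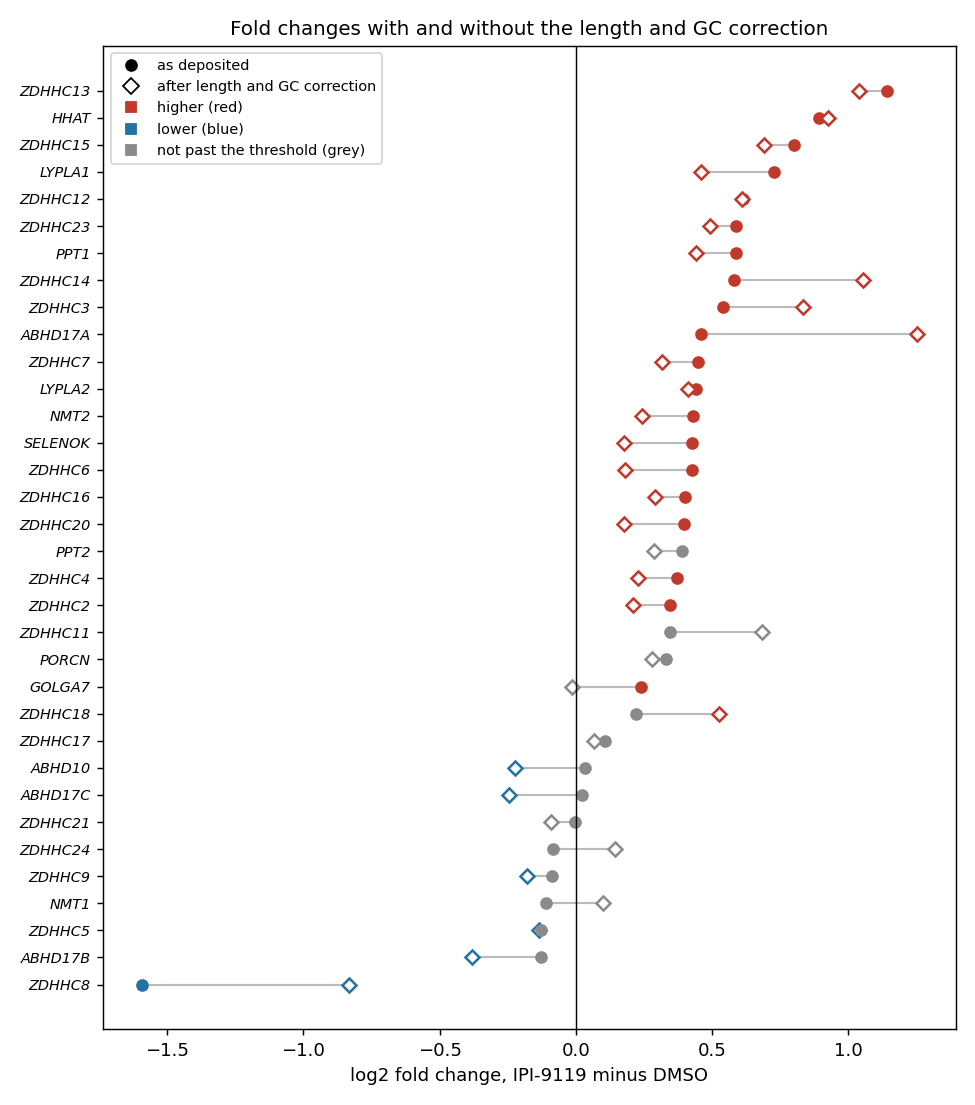
Log2 fold change of each acylation gene, IPI-9119 minus DMSO (x axis), without (filled circles) and with (open diamonds) the correction for exonic length and GC content, coloured by call. ABHD17A, ZDHHC14 and ZDHHC3 move up, ZDHHC8 moves towards 0, and 5 further genes pass as lower after the correction.

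Promoters of the members were compared by short motifs, since most members moved the same way. RefSeq promoters on GRCh38.p14, 250 bases before to 50 after the start, were found for 26 of the 34. Of the 20 members that rose, 15 had one, and ZDHHC13, which rose most, did not. A GC box (GGGCGG, either strand) was present in 20 of 26 (76.9%), against 44.6% of the 27305 promoters of all genes, noncoding ones included. It was in 12 of 15 members that rose, 7 of 10 that did not pass and in ZDHHC8, which fell. The CCAAT box (CCAAT) was in 38.5% of members and 35.7% of all promoters, the ETS motif (CCGGAAG) in 26.9% and 10.7%, the NRF1 motif, searched by its palindromic consensus, in 7.69% and 6.28%, the E-box (CACGTG) in 11.5% and 7.43%, and the YY1 motif (AAGATGGC) in 11.5% and 3.03%. The sterol response element of the LDL receptor promoter, with the sixth base left free, was in 0 of 26 and in 0.154% of all promoters. By call, the ETS motif was in 6 of the 15 members that rose and 1 of the 10 that did not pass. These counts were 3 and 0 for the E-box, 5 and 5 for the CCAAT box, 1 and 1 for NRF1 and 2 and 1 for YY1. Splits by call were not tested. The promoters of PPT1, which rose, and of ZDHHC8, which fell, are shown 5′ to 3′ on the gene's strand, with motif matches in capitals.
PPT1: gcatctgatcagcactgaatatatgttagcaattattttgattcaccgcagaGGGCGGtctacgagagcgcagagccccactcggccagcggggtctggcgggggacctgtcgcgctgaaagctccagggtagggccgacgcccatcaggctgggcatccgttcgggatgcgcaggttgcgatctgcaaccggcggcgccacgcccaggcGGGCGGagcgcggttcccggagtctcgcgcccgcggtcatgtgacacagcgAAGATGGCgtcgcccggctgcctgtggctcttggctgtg
ZDHHC8: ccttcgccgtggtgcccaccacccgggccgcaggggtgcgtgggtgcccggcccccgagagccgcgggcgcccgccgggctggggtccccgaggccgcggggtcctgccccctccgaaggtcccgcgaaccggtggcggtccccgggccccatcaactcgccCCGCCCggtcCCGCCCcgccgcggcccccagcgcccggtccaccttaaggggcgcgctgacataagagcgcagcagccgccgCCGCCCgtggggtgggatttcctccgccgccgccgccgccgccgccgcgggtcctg
The PPT1 window is chr1:40097203-40097502 (minus strand), where the capitals are GC boxes and then a YY1 motif. The ZDHHC8 window is chr22:20131554-20131853 (plus strand), around a RefSeq start that lies within the GENCODE gene, with 3 GC boxes in reverse orientation and 81.3% GC, against 65.7% for PPT1. None of these matches overlaps another, and a match is a description of letters only.

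Other lipidation machinery gave 9 higher, 0 lower and 9 not past of 18 tested genes (median log2 fold change 0.20), against 31.3% higher and 31.4% lower among all genes. WLS, which carries lipid-modified Wnt proteins to the cell surface, averaged 93.1 ± 7.98 normalised counts with IPI-9119 and 28.9 ± 7.21 with DMSO (SD, n = 3 each; log2 fold change 1.68, limma adjusted p 1.2e-05). ICMT, the methyltransferase that finishes prenylated CAAX proteins, rose by 0.58 on the log2 scale and the Rab escort protein gene CHML by 0.56. With length and GC content corrected for, 7 genes of this list were higher and 5 lower (median 0.074), against 30.7% and 34.1% of all genes. NOTUM and MBOAT4 are not listed in the table.

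Of 38 tested genes for palmitoylated proteins, 14 (36.8%) rose and 14 (36.8%) fell, against 31.3% and 31.4% of all genes, and their median log2 fold change was -0.046. With the correction 18 were higher and 11 lower, and the median was 0.14. The transferrin receptor gene TFRC averaged 19204 ± 635 normalised counts with IPI-9119 and 3667 ± 215 with DMSO (SD, n = 3 each; log2 fold change 2.39, limma adjusted p 3.2e-13). IFITM3 (0.78) and RAP2A (0.77) rose, and the transcription factor gene TEAD3 (-1.19), EGFR (-1.13) and GNAS (-0.83) fell. GNAS had a log2 fold change of 0.14 once corrected for length and GC content. Of 32 tested genes for myristoylated proteins, 15 rose, 11 fell and 6 did not pass (median 0.099), and with the correction 12 were higher and 10 lower (median 0.0025). All genes stood at 31.3% higher and 31.4% lower without the correction, and at 30.7% and 34.1% with it. The dihydroceramide desaturase gene DEGS1 (0.71), the calcium sensor gene NCS1 (0.71) and RP2 (0.69) rose. The scaffold gene AKAP12 fell to 22.8 ± 4.31 normalised counts with IPI-9119, against 143 ± 11.1 with DMSO (SD, n = 3 each; log2 fold change -2.61, adjusted p 5.7e-08). The kinase gene PRKACA fell to 474 ± 30.02, against 1018 ± 26.3 with DMSO. FMNL1 (-1.12, adjusted p 0.0252) was low, and lost its call without IPI-9119 replicate 3 (-0.62, adjusted p 0.101) or without any single DMSO library (0.0514 to 0.0734), with DESeq2 (0.0539), with no trend and no robust moderation (0.0692), and after the length and GC correction (-0.38, adjusted p 0.430).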

How the data were processed

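Polyadenylated RNA of 6 C4-2 libraries was sequenced. The authors deposited a signal: each library's read counts per gene, scaled by one size factor, which the steps between low values reveal. Trimmomatic 0.36, STAR 2.5.2b, DESeq2, featureCounts, Subread 1.5.2 and GRCh38 appear, without roles, per the submitters' processing notes. The annotation and strand setting of the counting are not given in the sources used here. Whole reads were recovered from the steps of the low values: 100% came out whole within 0.01 read. No replicates were duplicates: chi-square over degrees of freedom between pairs was 2.31 to 9.76. IPI-9119 replicate 1 stood apart, with 7.55 and 9.76 against IPI-9119 replicates 2 and 3. The value was 2.31 between IPI-9119 replicates 2 and 3, and 4.27 to 5.34 between DMSO replicates.

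IPI-9119 was compared with DMSO by limma 3.58.1 (R 4.3.3, trend and robust moderation, two-sided) on log2(value + 1), for genes with a mean of at least 10. Fold changes use this scale and are understated for low genes. Adjusted p-values under 0.05 were called. Alternatives were edgeR 4.0.16 and DESeq2 1.42.0 on the recovered reads, other pseudocounts, filters and scalings, a replicate block, leaving out each library, and a spline correction (4 degrees of freedom each) for exonic length and GC content from GENCODE 29. The tests were also run on simulated counts that held no length, GC or replicate effect, so that run cannot check how such effects are handled.

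The members and lists were chosen with earlier results of these data known. Library values are given for the 10 called members with the largest change in each direction and for all members that are not DHHC enzymes, with ZDHHC5 added after its values were seen. Of each companion list the 3 largest called changes each way are named.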

Additional observations from a re-analysis of the deposited data

How the results depend on the processing

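Over the alternatives the number of acylation genes called higher stayed between 18 and 22, against 20. The number called lower was 1, and became 2 with edgeR's quasi-likelihood test, 6 with the length and GC correction, and 1 to 2 when libraries were left out in turn. Whether the replicate numbers pair the libraries is not known. In their deviations from the group means, same-numbered libraries correlated by 0.14, 0.063 and 0.0044, and differently numbered ones by -0.14 to 0.099. With the replicate block 20 members were higher and 2 lower, ZDHHC8 and ZDHHC5 (limma adjusted p 0.0103 for ZDHHC5). FASN, which is not a member, also passed as lower with the block (2.7e-05). With the block and the length and GC correction together, chosen after seeing the data, 6 members were lower. Of other lipidation machinery 5 genes were lower with the length and GC correction, against 0.

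Among the genes named in the text some log2 fold changes reversed, and the cause was not tested. With the length and GC correction, also with the block, these were GOLGA7 (-0.014), ABHD10 (-0.22), ABHD17C (-0.24), ZDHHC24 (0.14) and NMT1 (0.100). FASN (0.84) and GNAS (0.14) also reversed with the length and GC correction, and are not reported with the block added to it. Among members that were not called, single libraries left out reversed ABHD10 (range -0.013 to 0.069), ABHD17C (-0.016 to 0.061) and ZDHHC21 (-0.033 to 0.014). TMM and quantile scaling, other pseudocounts, no filter, and no trend with no robust moderation changed no member's call or direction. With a mean of at least 50, 4 members were not tested. Members under about 50 normalised counts (HHAT, PPT2, ZDHHC11, ZDHHC15 and, with IPI-9119, ZDHHC8) rest on few reads, which limits their precision.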
